A study of Mus musculus with 5 samples.

Results

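ATP-binding cassette (ABC) genes encode membrane pumps that use ATP to move lipids, sterols, conjugates and drugs, together with a few relatives that work on ribosomes. NKX2-1 binding was described here at the 47 autosomal protein-coding ABC genes of the mouse other than Abca3. They were chosen by symbol (Abca to Abcg, followed by a number and an optional letter) out of 20665 autosomal protein-coding genes in RefSeq's table for GRCm38.p6 (mm10 coordinates). The rule leaves out Abca3 and takes autosomal genes only. No measured value enters the rule, although earlier results of these data were known when it was chosen. The data are chromatin immunoprecipitations (ChIP-seq) of whole lung from wild-type mice at postnatal day 10, when alveoli are forming. There is 1 input library and 1 library for each of 4 antibodies against NKX2-1, which are Abcam133638, Abcam133737, Abcam76013 and Millipore07-601. The protocol in the labels pools the sonicated chromatin before immunoprecipitation. Strain, sex and number of mice are not given in the sources used here, so whether the 4 libraries share 1 pool of chromatin cannot be told. With 1 library per antibody no value has a replicate error, no test between libraries was made, and the values of all 4 are set side by side.

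NKX2-1 is a homeodomain transcription factor of the lung epithelium, thyroid and ventral forebrain, and in the alveolus it is needed by both the flat type 1 cells that exchange gas and the type 2 cells that make surfactant. The ABC family falls into subfamilies by protein sequence. Members of A are large single-chain lipid transporters, and the excluded Abca3 fills the lamellar bodies of type 2 cells with surfactant phospholipid. B and D hold drug and bile pumps beside transporters of mitochondria, peroxisomes and lysosomes, C holds exporters of conjugates and the sulfonylurea receptors, G holds sterol and drug exporters, and E and F, pooled here, have no membrane-spanning part and act in translation. The bound cells cannot be told apart in whole lung, which mixes many types, and the peak lists hold no expression values.

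Depth after removal of duplicates was 43031331 to 46547989 tags per antibody library, and the deposited lists hold 40877 to 57891 peaks. Peaks that overlapped by at least 1 bp were joined across lists, and a joined region to which each of the 4 antibodies contributed is called a shared region. A region belonged to a gene when its summits lay inside the gene or within 10 kb of it. The fold enrichment is the ratio of the tag pileup at the summit to the local background as the authors' peak caller gave it, and a region's mean fold averages its 4 libraries.

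A shared region lay at 31 of the 47 ABC genes (66.0%, exact Clopper-Pearson interval 50.7 to 79.1%), against 60.3% of all autosomal protein-coding genes, a share inside that interval. The interval covers counting error only, and neighbouring members are not independent. A peak of at least 1 antibody was found at 37 of 47, against 74.1% of all genes. A shared region with a mean fold of at least 10 was found at 16 of 47, against 25.9%, and 18 of 47 had a shared region no further than 1 kb from an end of the gene, against 34.7%. At least 2 shared regions were found at 22 members, against 36.9% of all genes. The share of members with a shared region lay near the background, and none of these differences was tested. The background was not matched for gene length, whose median was 65.6 kb for members and 17.5 kb for all genes. Restricted to the 10000 highest peaks of each list, 14 members had a shared region, against 23.3% of all genes. In all, 83 shared regions were counted once each over 4551 kb of windows, or 1.82 per 100 kb, against 2.03 per 100 kb over the windows of all genes. Their median mean fold was 7.30, against 7.11 for the 24740 shared regions near any such gene, and 24 of them (28.9%) reached a mean fold of 10, against 25.9%.

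**Figure D1:**
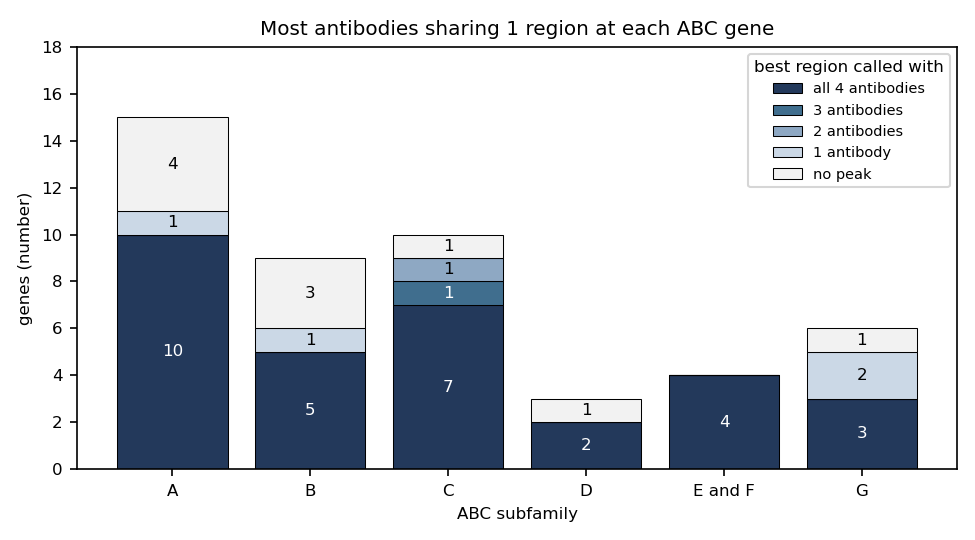
Number of ABC genes (vertical axis) in each subfamily (horizontal axis), divided by the largest number of antibodies that gave a peak in 1 region inside the gene or within 10 kb. All 4 genes of E and F had a region of all 4 antibodies, whereas 4 genes of A and 3 of B had no peak at all.

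Shared regions lay at 10 of 15 genes of subfamily A (66.7%, interval 38.4 to 88.2%), 5 of 9 of B (55.6%, 21.2 to 86.3%), 7 of 10 of C (70.0%, 34.8 to 93.3%), 2 of 3 of D (66.7%, 9.43 to 99.2%), 4 of 4 of E and F (100%, 39.8 to 100%) and 3 of 6 of G (50.0%, 11.8 to 88.2%). The subfamilies are too small for these shares to be told from 60.3% or from each other. Among genes with a shared region, the median best mean fold was 16.4 in A, 15.8 in C, 11.7 in D, 9.38 in E and F, 6.69 in B and 6.05 in G, beside 9.04 over all genes with a shared region. A mean fold of 10 was reached at 8 genes of A, 5 of C, 2 of E and F and 1 of D. Of all genes, 25.9% reached it. None of the 9 genes of B or the 6 of G reached it, with highest values of 7.95 (Abcb10) and 8.96 (Abcg4). Among these genes, Abca2, Abca15, Abca17, Abcc3 and Abcg4 had their best region inside another gene, and Abca7 and Abcb10 nearest to another. Abca15 and Abca14 count the same region, and that of Abca17 lies inside Abca3. Without Abca17, 7 genes of A reached a mean fold of 10, and the median of A was 15.6. Density was highest in E and F, at 3.42 shared regions per 100 kb, followed by C at 2.67, D at 2.25, A at 1.52, G at 1.34 and B at 1.26. The value of E and F rests on 5 shared regions. Gene lengths also differed, with medians of 13.0 kb in E and F, 36.3 in G, 46.1 in D, 65.6 in B, 75.8 in C and 79.2 in A. The difference between subfamilies was not tested.

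**Figure D2:**
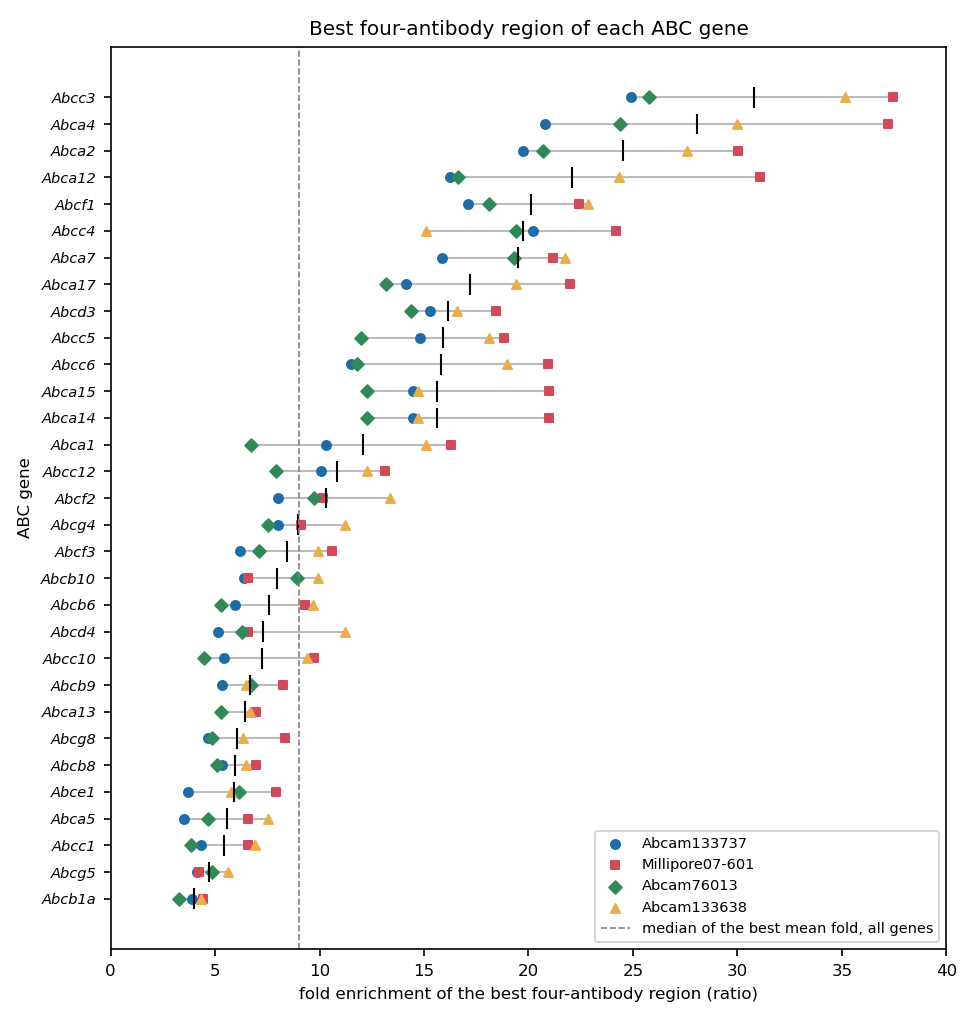
Fold enrichment (ratio, horizontal axis) of the best shared region of the 31 ABC genes that had one, with 1 symbol per antibody library, a black tick at the mean of the 4 and a dashed line at the median over all genes. Abcc3, Abca4, Abca2 and Abca12 lie highest, with means of 22.1 to 30.8, and Abcb1a lowest at 3.98.

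The strongest region of the family stood beside Abcc3, the gene of multidrug resistance-associated protein 3, which exports organic anions and glucuronide conjugates. Its fold was 24.9 with Abcam133737, 25.8 with Abcam76013, 35.1 with Abcam133638 and 37.4 with Millipore07-601 (chromosome 11, 94340886 to 94341976), from pileups of 120, 126, 162 and 176 tags. The mean fold of 30.8 ranked 204th among the best regions of the 12459 genes with a shared region. Its summits fell within 16 bp of each other, 2.12 kb outside Abcc3 and inside the neighbouring gene Ankrd40. A further pair of strong shared regions followed on the same side, 3.27 and 4.77 kb from Abcc3 and also inside Ankrd40, with mean folds of 23.3 and 19.9. Inside Abcc3 the shared regions were weaker. One lay at an end of the gene (mean fold 6.08) and one 22.3 kb from the nearer end (6.83). The gene to which the strong group belongs cannot be told from the peaks.

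Abca4, whose product clears retinal derivatives from photoreceptor membranes, carried 7 shared regions, all inside the gene. The strongest (chromosome 3, 122058486 to 122059358) gave folds of 20.8 with Abcam133737, 24.4 with Abcam76013, 30.0 with Abcam133638 and 37.2 with Millipore07-601. It lay 14.7 kb downstream of the start site in the RefSeq promoter table, and no other protein-coding gene overlaps it. The other 6 had mean folds of 5.35 to 11.6. Another 13 regions at Abca4 had a peak of 1 to 3 antibodies, the largest number of such regions at any member.

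Abca12 encodes a lipid transporter known for filling the lamellar granules of the epidermis. Its strongest shared region (chromosome 1, 71386564 to 71387074) lay inside the gene, 28.1 kb downstream of the start site, with folds of 16.3 with Abcam133737, 16.6 with Abcam76013, 24.4 with Abcam133638 and 31.1 with Millipore07-601. The second, 17.0 kb downstream, had a mean fold of 11.0. Neither overlaps another protein-coding gene. Abcam133638 and Millipore07-601, whose peak lists are longer, gave the higher folds at Abcc3, Abca4, Abca2 and Abca12 alike.

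Abca2, a transporter of lysosomal lipids in brain and nerve, had a strong region that lay among neighbours. Its folds were 19.8 with Abcam133737, 20.7 with Abcam76013, 27.6 with Abcam133638 and 30.0 with Millipore07-601 (chromosome 2, 25457300 to 25457818). It stood 8.97 kb beyond the gene, inside the overlapping genes Clic3 and Paxx. At the start site of Abca2 itself a shared region had a mean fold of 7.21, and another, inside Paxx, had 7.44. Abca7, which moves phospholipids and is known from Alzheimer risk studies, showed the same arrangement. Its strongest region (chromosome 10, 79986135 to 79987326) lay 9.31 kb outside, 1.46 kb from Cnn2, with folds of 15.8 with Abcam133737, 19.3 with Abcam76013, 21.2 with Millipore07-601 and 21.8 with Abcam133638. The shared region at the Abca7 start site had a mean fold of 7.12, and one 0.213 kb past the other end of the gene had 12.5. The window of Abca7 held 5 shared regions, or 12.8 per 100 kb, the highest density among the members, but 3 of the 5 were inside Cnn2 or nearer to it.

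Abca1, the cholesterol and phospholipid exporter that loads apolipoprotein A-I, had a shared region deep inside, 51.8 kb downstream of the start site (chromosome 4, 53107908 to 53108568). The antibodies differed widely there, with folds of 6.70 for Abcam76013, 10.3 for Abcam133737, 15.1 for Abcam133638 and 16.3 for Millipore07-601. A weaker region with a mean fold of 6.61 had its summit at -151 from the start site. Abca13, the longest gene of the family at 493 kb, had 4 shared regions with mean folds of only 2.77 to 6.43. Abca5, a lysosomal transporter, had its single shared region with the summit at -64 from the start site (chromosome 11, 110337397 to 110338040), with folds of 3.50 with Abcam133737, 4.67 with Abcam76013, 6.56 with Millipore07-601 and 7.54 with Abcam133638.

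The little-studied Abca17 has a window that reaches into Abca3. Its 3 shared regions were all held in common with Abca3, and 2 of them lay inside Abca3. The strongest (chromosome 17, 24359614 to 24360423), 8.02 kb outside Abca17, gave folds of 13.2 with Abcam76013, 14.2 with Abcam133737, 19.4 with Abcam133638 and 22.0 with Millipore07-601. The third, inside Abca17 by 0.185 kb and 0.048 kb from Abca3, had a mean fold of 8.23. Without Abca17 the count was 30 of 46, and the median best mean fold of the family 9.64 in place of 10.3. The excluded Abca3 itself had 6 shared regions with a best mean fold of 20.5. Of the 47 members, 4 (Abcc3, Abca4, Abca2 and Abca12) exceeded this value.

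**Figure D3:**
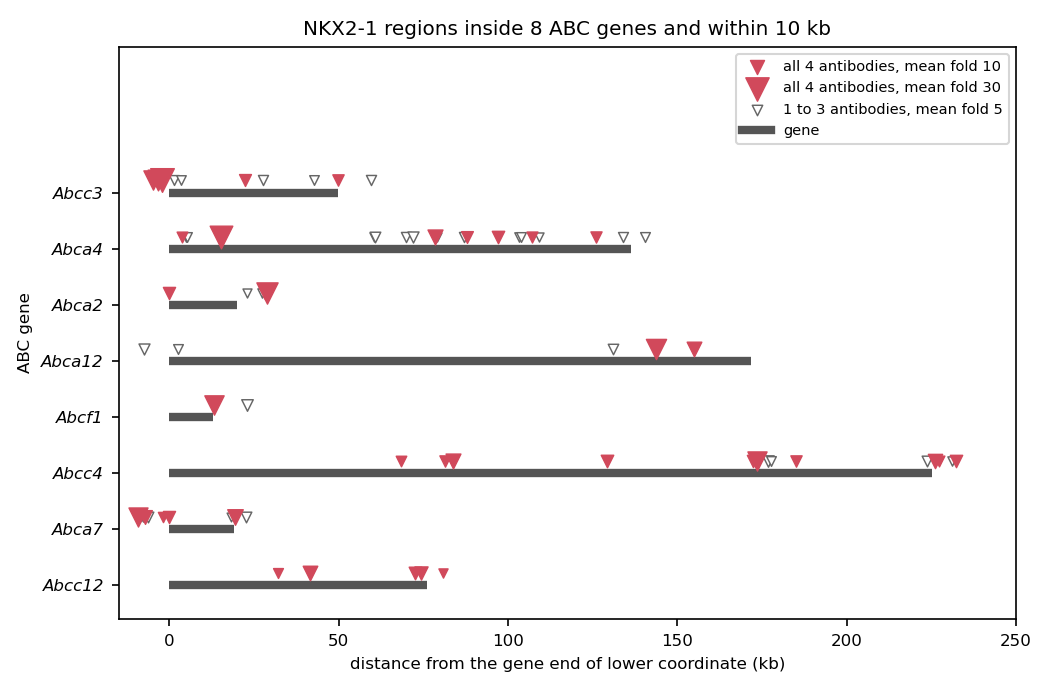
Regions along 8 ABC genes, chosen after their values were seen, against the distance in kb from the gene end of lower coordinate. Grey bars are the genes, filled triangles are regions of all 4 antibodies, open triangles those of 1 to 3, and the size of a triangle grows with the mean fold. The strongest regions of Abcc3, Abca2 and Abca7 lie outside the gene, and those of Abca4, Abca12, Abcc4 and Abcc12 inside.

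Subfamily C held the member with the most shared regions. Abcc4, which exports cyclic nucleotides and prostaglandins, had 10 over its 225 kb, 7 inside the gene and 3 within 10 kb outside it. The strongest (chromosome 14, 118655930 to 118656399) had folds of 15.1 with Abcam133638, 19.4 with Abcam76013, 20.2 with Abcam133737 and 24.2 with Millipore07-601. Here Abcam133638 had the lowest fold but the highest pileup, 141 tags against 112 with Abcam76013, 115 with Abcam133737 and 134 with Millipore07-601. Abcam133638 also had the highest pileup after division by each library's filtered tags. The order of the antibodies at this region thus depends on the quantity that is read. The other shared regions of Abcc4 had mean folds of 5.07 to 11.4.

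Abcc5, also an exporter of organic anions and cyclic nucleotides, had a pair of shared regions inside the gene with similar strength. The folds of the stronger (chromosome 16, 20413769 to 20414422) were 12.0 with Abcam76013, 14.8 with Abcam133737, 18.1 with Abcam133638 and 18.8 with Millipore07-601, and the other had a mean fold of 14.3. Abcc6, whose loss leads to calcification of soft tissue, had 4 shared regions. The strongest lay inside the gene 4.80 kb from an end (chromosome 7, 46025395 to 46025918), with folds of 11.5 with Abcam133737, 11.8 with Abcam76013, 19.0 with Abcam133638 and 20.9 with Millipore07-601. Abcc12 had 5 shared regions and no region of fewer antibodies. Their mean folds ran from 3.54 to 10.9, and 4 of the 5 lay inside the gene. At Abcc1, the glutathione conjugate exporter, the single shared region (chromosome 16, 14372978 to 14373299) gave folds of 6.90 with Abcam133638, 6.56 with Millipore07-601, 4.32 with Abcam133737 and 3.86 with Abcam76013. This was the lowest best region of the subfamily.

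Genes of organelle transporters in subfamilies B and D had regions of modest fold, with 1 exception. Abcd3, which brings long-chain and branched fatty acids into peroxisomes, had a region inside the gene (chromosome 3, 121782975 to 121783448) at folds of 14.4 with Abcam76013, 15.3 with Abcam133737, 16.6 with Abcam133638 and 18.5 with Millipore07-601. Abcd4, which serves lysosomal vitamin B12 release, had 1 shared region 0.091 kb inside an end (chromosome 12, 84617271 to 84617635). Its folds were 5.15 with Abcam133737, 6.29 with Abcam76013, 6.56 with Millipore07-601 and 11.2 with Abcam133638. Abcb10, of the mitochondrial inner membrane, had 3 shared regions with mean folds of 5.17 to 7.95. The strongest (chromosome 8, 123949103 to 123949589) was 3.14 kb outside Abcb10 but 0.056 kb from Nup133, with folds of 6.38 with Abcam133737, 6.56 with Millipore07-601, 8.93 with Abcam76013 and 9.91 with Abcam133638. Best mean folds were 7.56 at the porphyrin transporter gene Abcb6, inside the neighbour Zfand2b, 6.69 at the lysosomal peptide transporter gene Abcb9 and 5.97 at the mitochondrial Abcb8. Of the 7 autosomal genes for transporters of mitochondria, peroxisomes or lysosomes in subfamilies B and D, Abcd2 was the one without a peak.

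The drug pump genes of subfamily B carried little. Abcb1a, for P-glycoprotein, had a single shared region, 56.1 kb inside the gene (chromosome 5, 8623019 to 8623286). It gave folds of 3.25 with Abcam76013, 3.91 with Abcam133737, 4.31 with Abcam133638 and 4.44 with Millipore07-601. Its mean of 3.98 ranked 12319th of 12459, the lowest best region of the family. Its neighbours Abcb1b and Abcb4, the latter a flippase of bile phosphatidylcholine, had no peak of any antibody, and neither had the bile salt pump gene Abcb11. Abcb5 had 1 peak, with Millipore07-601 at a fold of 4.65.

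Each of the 4 genes for ribosome factors had a shared region within 1 kb of an end, as had 34.7% of all genes. Abcf1, which takes part in translation initiation, had the strongest promoter region of the family (chromosome 17, 35969426 to 35970104), with folds of 17.1 with Abcam133737, 18.1 with Abcam76013, 22.4 with Millipore07-601 and 22.8 with Abcam133638. The summit was at -115 from the start site. At Abcf2 the folds were 8.03 with Abcam133737, 9.74 with Abcam76013, 10.2 with Millipore07-601 and 13.4 with Abcam133638, with the summit at -48 (chromosome 5, 24577204 to 24578024). Abcf3 had a best mean fold of 8.44, 0.767 kb outside an end. Abce1, the factor that splits ribosomes after termination, had folds of 3.72 with Abcam133737, 5.77 with Abcam133638, 6.15 with Abcam76013 and 7.94 with Millipore07-601 (chromosome 8, 79711599 to 79711991), the lowest mean of these genes at 5.90. Its summit lay at -41 from the start site, inside Anapc10.

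Of the 6 genes of subfamily G, Abcg4, Abcg5 and Abcg8 had shared regions. Abcg5 and Abcg8, which pair to pump sterols into bile and gut, held 1 shared region in common, inside Abcg5 (chromosome 17, 84672451 to 84673044), with folds of 4.12 with Abcam133737, 4.23 with Millipore07-601, 4.87 with Abcam76013 and 5.60 with Abcam133638. Abcg8 had another of its own with a mean fold of 6.05. That of Abcg5, with a mean fold of 3.71, lay 7.58 kb outside Abcg5 and inside Dync2li1. The best region of the subfamily was counted for Abcg4, a sterol exporter of brain, but lay inside Hinfp 4.14 kb away (chromosome 9, 44292558 to 44292933), with folds of 11.2 with Abcam133638, 9.10 with Millipore07-601, 8.03 with Abcam133737 and 7.51 with Abcam76013. Abcg1, a cholesterol exporter of macrophages and type 2 cells, had no shared region. It had 1 peak of 1 antibody, Abcam133638, at a fold of 4.23, and the nearest shared region was 159 kb from the gene. Abcg2, an exporter of drugs and urate, had 2 peaks, each with 1 antibody, at folds of 2.78 (Abcam76013) and 2.97 (Millipore07-601), and the nearest shared region was 208 kb away.

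In all, 16 members lacked a shared region. No antibody gave a peak at 10 of them, namely Abca6, Abca8a, Abca9, Abca16, Abcb1b, Abcb4, Abcb11, Abcc2, Abcd2 and Abcg3. The other 6 were Abca8b, Abcb5, Abcc8, Abcc9, Abcg1 and Abcg2. Closest to a call of all 4 was Abcc8, the sulfonylurea receptor of insulin-secreting cells, with 1 further peak of Millipore07-601 (2.67) and 1 region of 3 antibodies at folds of 4.94 (Abcam133737), 5.50 (Millipore07-601) and 7.54 (Abcam133638). That region stood 3.74 kb outside Abcc8 and inside Kcnj11, the gene of its channel partner. Abcc9, the sulfonylurea receptor of muscle and vessels, had 2 regions of 2 antibodies each, with mean folds of 3.65 and 4.48. Abca8b had 1 peak at 3.88 with Abcam133638. At the 10 kb limit, the nearest shared region outside it was 12.4 kb from Abcc9 (mean fold 5.25), followed by 15.7 kb from Abcb4 (9.27). On the other side of the limit, the members whose nearest shared region lay furthest away were Abca15 at 5.40 kb, Abcg4 at 4.14 kb and Abcb6 at 2.64 kb.

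The members without a shared region were long genes. Their lengths ran from 46.1 to 135 kb with a median of 70.1 kb, whereas members with one had a median of 49.7 kb. Over all genes the order was the other way round, with medians of 9.62 kb without and 23.9 kb with a shared region. A longer gene has a longer window, and the share of all genes with a shared region rose over 5 equal classes of gene length, from 32.9% through 57.3%, 65.1% and 70.1% to 76.0%. Among ABC genes all 12 in the shortest 3 classes had a shared region, 6 of 9 of the next (25.1 to 57.9 kb) and 13 of 26 of the longest (over 57.9 kb). The best regions of the long members with one had a median mean fold of 15.6, against 11.2 for all genes of that length. That median is the value of a single region counted for both Abca14 and Abca15. The best region of Abca17, also a long member, lies inside Abca3. The difference was not tested. The 3 runs of neighbouring genes described next hold 11 of the 26 long members, and outside them 9 of 15 had a shared region.

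**Figure D4:**
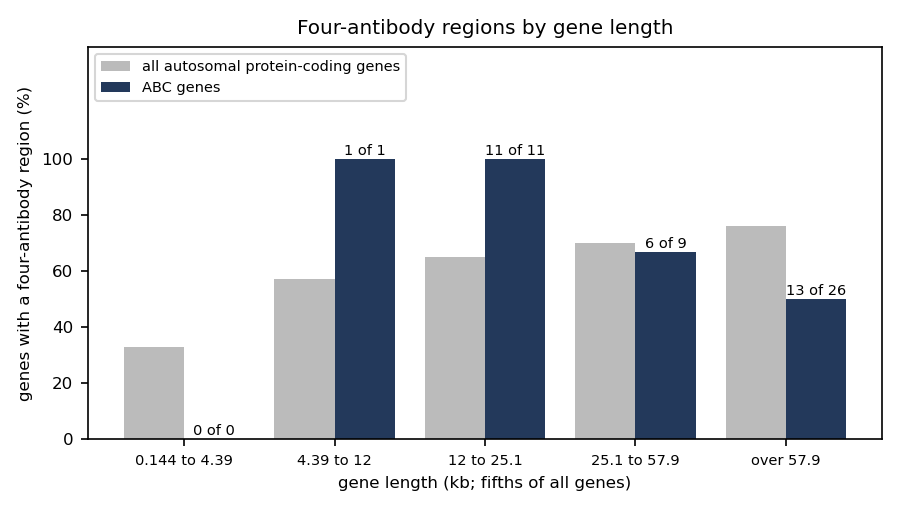
Percentage of genes with a shared region (vertical axis) by gene length in kb (horizontal axis), for all autosomal protein-coding genes (grey) and ABC genes (dark, with their number). The grey bars rise from 32.9 to 76.0%, and the dark bar of the longest genes stands at 13 of 26.

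Of the 16 members without a shared region, 7 stand in the 3 runs of at least 3 neighbouring ABC genes. On chromosome 11 the 5 genes Abca8b, Abca8a, Abca9, Abca6 and Abca5 span 416 kb with their windows, and the 1 shared region there was that at the start of Abca5. Abca8a was 240 kb from it. On chromosome 5 the windows of Abcb1a, Abcb1b and Abcb4 span 375 kb with 1 shared region, that of Abcb1a. On chromosome 7 Abca14, Abca15 and Abca16 had 3 shared regions over 361 kb. All 3 lay inside Abca14. The strongest of them (120322897 to 120323277), 2.27 kb inside Abca14 and 5.40 kb from Abca15, had folds of 12.3 with Abcam76013, 14.5 with Abcam133737, 14.7 with Abcam133638 and 21.0 with Millipore07-601. Abca16 had no peak. In the 3 runs together 4 of 11 members had a shared region, against 76.0% of all genes of their length class, and neighbours in a run are not independent of each other. The density was 0.240 shared regions per 100 kb in the run on chromosome 11, 0.266 in that on chromosome 5 and 0.831 in that on chromosome 7, against 2.03 over all genes. The neighbouring pair Abcg5 and Abcg8 was not counted as a run. Both of its genes had a shared region, and its density was 4.83 per 100 kb.

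**Figure D5:**
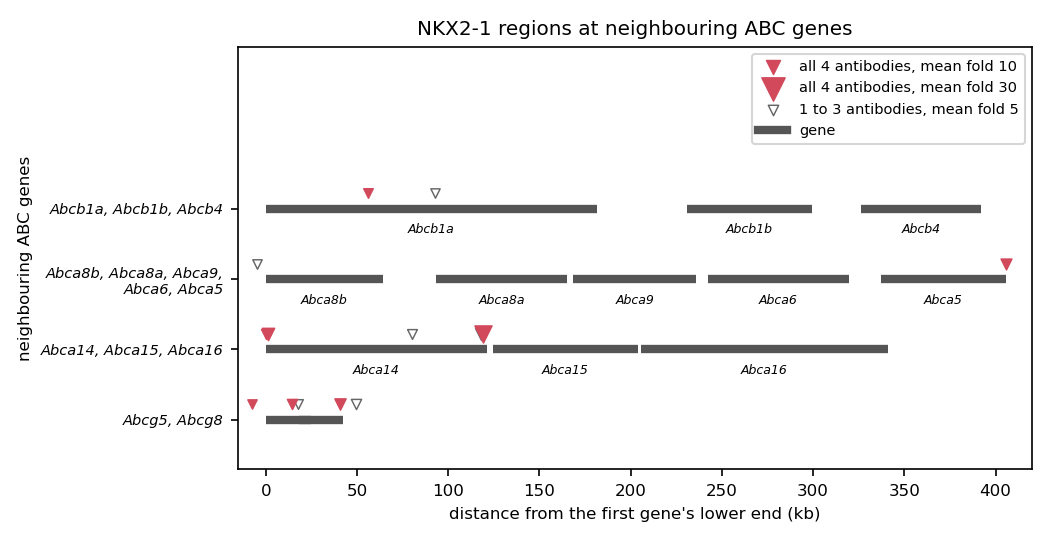
Regions at 4 groups of neighbouring ABC genes against the distance in kb from the lower end of the first gene, with symbols as in the map of single genes. Regions are few from Abca8b to Abca6 and from Abcb1b to Abcb4. The windows of Abcg5 and Abcg8 hold 3 shared regions over 62.2 kb, the weakest of them inside Dync2li1.

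Relative to their genes, the shared regions of members were placed much like those of all genes. Counted once for each gene that they lie near, 19 of 85 (22.4%) were no more than 1 kb from an end, against 24.7% for all genes, 41 (48.2%) lay further inside, against 46.3%, and 25 (29.4%) lay outside at 1 to 10 kb, against 28.9%. The best region lay inside the member alone for 17 of the 31 genes, and outside all genes but nearest to the member for 5. For 7 it lay outside the member and inside another gene (Abca2, Abca15, Abca17, Abcb6, Abcc3, Abce1 and Abcg4), and for 2 (Abca7 and Abcb10) it lay outside genes but nearest to another. Across these classes, 9 of the 31 best regions lay within 1 kb of an end of the member. Only counting regions for which the member was the nearest gene, or held the region, left 27 members, without Abca15, Abcb6, Abce1 and Abcg4. By this count all genes stood at 50.2%.

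Start sites were read from the RefSeq promoter table (GRCm38.p6), which gave 44 promoters of 37 members, from 250 bases before to 50 after the start. Of these, 10 (22.7%) held the summit of a shared region, against 22.2% of 20085 promoters of autosomal protein-coding genes. They belong to Abca1, Abca2, Abca5, Abca7, Abca14, Abcb10, Abcc10, Abce1, Abcf1 and Abcf2. Mean folds were 4.35 (Abca14) to 7.25 (Abcc10), with the exceptions of Abcf2 at 10.3 and Abcf1 at 20.1. Abcc10, for a drug efflux pump, had folds of 4.48 with Abcam76013, 5.40 with Abcam133737, 9.42 with Abcam133638 and 9.72 with Millipore07-601, and a summit at -91.

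Short elements of the NK2 class of homeodomain factors, CTCAAG and TCAAGTG, were searched on both strands. They overlap where CTCAAG runs into TG. CTCAAG was found in 9 of the 44 promoters of members (20.5%), against 15.0% of all 20085, and in 3 of the 10 with a shared summit, against 17.9% of the 4458 such promoters of all genes. TCAAGTG was found in 2 of 44 and 1 of 10, against 2.93% and 2.36%. These 2 are both promoters of Abcc10, and both also count among the 9 with CTCAAG. A match is a run of letters and not a measured site. The promoter with the strongest binding, that of Abcf1 (chr17:35969701-35970000, minus strand), held neither element. The other 3 shown are those with both a shared summit and CTCAAG, and come from Abcc10 (chr17:46327974-46328273, minus strand), Abcf2 (chr5:24577297-24577596, minus strand) and Abcb10 (chr8:123983073-123983372, minus strand). Capitals mark the matches of either element, and each sequence runs 5′ to 3′ toward the gene.
Abcf1: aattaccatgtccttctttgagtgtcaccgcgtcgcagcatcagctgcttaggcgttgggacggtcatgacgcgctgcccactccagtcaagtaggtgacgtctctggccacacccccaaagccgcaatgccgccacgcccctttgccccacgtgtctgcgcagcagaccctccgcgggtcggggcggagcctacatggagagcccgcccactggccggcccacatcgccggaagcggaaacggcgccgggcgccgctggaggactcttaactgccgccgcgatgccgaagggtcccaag
Abcc10: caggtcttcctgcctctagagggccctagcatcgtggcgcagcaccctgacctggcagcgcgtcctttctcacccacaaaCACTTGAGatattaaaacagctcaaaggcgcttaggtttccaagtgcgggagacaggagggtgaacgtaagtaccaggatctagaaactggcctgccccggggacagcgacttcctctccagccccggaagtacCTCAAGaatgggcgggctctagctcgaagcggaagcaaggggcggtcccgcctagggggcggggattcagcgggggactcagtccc
Abcf2: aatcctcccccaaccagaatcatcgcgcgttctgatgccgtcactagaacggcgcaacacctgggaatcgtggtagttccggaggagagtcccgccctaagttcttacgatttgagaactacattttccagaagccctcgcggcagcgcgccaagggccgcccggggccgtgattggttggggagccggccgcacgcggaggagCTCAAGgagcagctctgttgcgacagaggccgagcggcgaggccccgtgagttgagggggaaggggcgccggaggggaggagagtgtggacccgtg
Abcb10: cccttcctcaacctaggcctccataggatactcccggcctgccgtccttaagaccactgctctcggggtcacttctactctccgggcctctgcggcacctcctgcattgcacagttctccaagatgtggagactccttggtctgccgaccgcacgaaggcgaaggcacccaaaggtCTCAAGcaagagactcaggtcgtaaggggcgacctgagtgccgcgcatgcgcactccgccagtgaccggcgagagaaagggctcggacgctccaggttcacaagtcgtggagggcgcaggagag
In Abcc10 the first capital run, from -170, reads both elements on the opposite strand, and the second run is CTCAAG on the gene's strand. In Abcf2 the match starts at -46 and in Abcb10 at -74. The summit lay at -48 in Abcf2 and at 48 past the start in Abcb10.

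The antibodies shared the family's regions in much the same way as those of other genes. Near members lay 168 merged regions. Every antibody contributed to 83 of them (49.4%), while 21 (12.5%) came from 3 antibodies, 26 (15.5%) from 2 and 38 (22.6%) from a single one. For all autosomal protein-coding genes these were 46.3%, 13.5%, 15.3% and 24.9%. Millipore07-601 gave a peak in 143 of the 168 and Abcam133638 in 139, Abcam133737 in 104 and Abcam76013 in 102. Of the 38 regions of 1 antibody, 21 came from Abcam133638, 13 from Millipore07-601, 3 from Abcam133737 and 1 from Abcam76013. In the 83 shared regions the median fold was 8.41 with Abcam133638, 8.25 with Millipore07-601, 5.97 with Abcam133737 and 5.68 with Abcam76013. The highest fold came from Millipore07-601 in 46 of them and from Abcam133638 in 35, against 54.0% and 41.7% over all genes. At 1 region, inside Abcb9 (mean fold 3.63), Abcam133737 was highest, and at 1 region near Abcg5 (mean fold 3.71) Abcam76013 was.

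A list of 34 genes that work with ABC transporters (other ABC proteins, lipid-sensing receptors, lipid acceptors, conjugate-sensing factors and channel or import partners) was set beside the members. It was put together by hand with earlier results of these data known, so its share is a description only. A shared region lay at 30 of 34 (88.2%), beside 60.3% of all genes. All 34 had a peak of at least 1 antibody, beside 74.1% of all genes. Their median best mean fold was 10.6. The highest was inside Rxra, the partner of the sterol-sensing receptors, at 37.9 with Abcam133737, 38.4 with Abcam76013, 48.1 with Abcam133638 and 51.8 with Millipore07-601 (chromosome 2, 27756205 to 27756702). It exceeded every region of the members. Next came Npc1, the late endosomal cholesterol transporter gene, with a mean fold of 34.5. Srebf1, for a regulator of lipid synthesis, followed at 27.7 inside its neighbour Rai1, Nr1i3 at 26.1 inside Apoa2, and Tapbp at 20.3 outside the gene and nearest to Rgl2. All 8 genes of lipid-sensing receptors and sterol regulators had a shared region, among them Nr1h2 (mean fold 11.0) and Nr1h3 (6.51), whose products induce Abca1 and Abcg1 in response to oxysterols. The best region of Nr1h2 lay outside the gene and nearest to Pold1, and that of Nr1h3 lay outside the gene and inside Madd. Pparg had 8.87. Of the ABC proteins with other symbols, the chloride channel gene Cftr had a best mean fold of 16.0, inside the gene, and the peptide transporter genes Tap1 and Tap2 had 5.91 and 6.54. Both of these regions lay outside the gene, and that of Tap1 was nearest to Psmb9. The 4 genes without a shared region were Apoa1, Kcnj11, Nr1i2 and Scarb1.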

How the data were processed

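NKX2-1 ChIP-seq of whole lung at postnatal day 10 gave 4 antibody libraries and 1 input. Peaks were called by the authors with MACS 2.1.2, per the file headers, once for each antibody against the same input (10653749 filtered tags). The q-value cutoff was 0.05, 1 tag was kept per position, and the input was scaled up to each library. The build mm10 and the tools deepTools, MACS2, SAMtools, Bowtie, Trimmomatic and FastQC are named in the submitters' processing notes. Each deposited line holds an interval, a summit, a pileup signal in tags, a fold enrichment (a ratio over local background), and −log10 of the p-value and of the q-value.

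The lists were merged in Python 3.11.15 with numpy 2.4.6 into 68919 regions, 31606 of them with all 4 antibodies, and the scoring was checked on simulated peaks. Shares have exact 95% Clopper-Pearson intervals (scipy 1.17.1). The members and lists were chosen with earlier results of these data known. Values with all 4 antibodies are given for the 12 members with the highest best mean fold and for the highest and lowest of each subfamily, with every member without a shared region named, and other members were chosen after their values were seen. Of the list of partner genes the highest 5 and those without a shared region are named, and others named there were chosen after their values were seen. The highest fold of a region in each list was used where it held several peaks. Because the gene table has neither strand nor exons, a distance is to the nearer end of the gene unless a start site is named, which comes from the promoter table. It lists no promoter for Abca6, Abcb8, Abcc1, Abcc3, Abcc6, Abcc8, Abcd2, Abcd4, Abcg1 or Abcg4. The split into exons and introns, and sequences of regions outside promoters, were not analysed here. Values of genes outside the rule, other than those given, are not reported here. Alternatives covered the window, the peak threshold, the overlap rule, each antibody left out and the nearest gene.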

Additional observations from a re-analysis of the deposited data

How the results depend on the processing

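Across 12 alternatives for each of 9 values, 95 of 108 values stayed within 1.5 times the reported count, or within the spread over libraries (SD 2.12) for the median best mean fold. Leaving out each antibody in turn left 31 or 32 members with a region of the remaining 3, against 60.5 to 63.2% of all genes. Abcc8 was gained without Abcam76013. Restricted to the 10000 highest peaks of each list, 14 members (against 23.3% of all genes) and 21 regions remained. Their median best mean fold was 18.3. By subfamily, these peaks left none (0) in B and in G, 1 in D and 1 in E and F, while A kept 7 and C 5. With a fold of at least 5, 24 members (against 44.7% of all genes) and 52 regions remained, at a median of 15.6, and 1 member in G. A window of 50 kb gave 170 regions at 35 members (against 76.4% of all genes) and added Abcb4, Abcb11, Abcc2 and Abcc9. A window of 2 kb gave 28 members (against 51.5% of all genes) at a median best mean fold of 7.76. A reciprocal overlap of 50% left 27 members, against 54.1% of all genes, and 3 members in B. Stricter thresholds leave fewer peaks by construction. No paired analysis was possible because each antibody has 1 library and the labels give no replicate numbers. No value has a replicate error. A gene without a peak is one without a call at this depth.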
